A study of Mus musculus with 12 samples.

Results

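The S100 genes are a family of small calcium-binding proteins, and 10 of them were followed here across 4 groups of mice: S100a1, S100a4, S100a6, S100a8, S100a9, S100a10, S100a11, S100a13, S100a16 and S100b. They were chosen by gene name, with earlier results of these data known, to cover members known from muscle fibers, stromal cells and myeloid cells. They are 10 of the 37748 genes in the deposited tables. All 10 passed the filter on low counts, which kept 16679 genes.

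Gastrocnemius muscle of 12 mice at 13 weeks of age was measured by RNA-seq, 1 library per mouse and 3 mice per group, in a study of mice that express the human DUX4 gene in skeletal muscle. Control mice carried ACTA1-MCM/+ alone, a Cre recombinase that tamoxifen (TMX) activates and whose promoter is active in skeletal muscle. No TMX is listed for them here. The paper's overview of its models lists ACTA1-MCM/+ controls with TMX, and its RNA-seq methods do not say whether these mice were injected. FLExD mice carried FLExDUX4/+ alone, a DUX4 transgene that Cre recombination switches on, and are also listed without TMX. A label field ties FLExD mice to mild pathology although they lack Cre. Moderate mice carried both transgenes and received 1 injection of TMX at 5 mg/kg. Severe mice carried both and received 2 injections at 10 mg/kg on consecutive days. Muscles of the moderate and severe mice were taken 9 days after TMX. Neither control group carried both transgenes or is listed with TMX, so effects of TMX, of the combined genotype and of DUX4 cannot be told apart. Recombination is limited to cells in which the ACTA1 promoter is active.

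Most S100 proteins bind calcium through a pair of EF-hand loops, change shape, and then dock onto target proteins. Most also work as dimers. S100a1 is the member typical of striated muscle, where it binds the ryanodine receptor and the calcium pump of the sarcoplasmic reticulum. S100a4, S100a6, S100a10 and S100a11 are widespread in fibroblasts, leukocytes and other motile cells, S100a8 and S100a9 form the calprotectin of neutrophils and monocytes, and S100b is abundant in glia, Schwann cells among them.

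Total counts were 23796902 to 29136403 per mouse. Levels are given as CPM, counts scaled to a common total, on library sizes adjusted by TMM, a scaling that offsets differences in library composition; 3 counts were worth 0.0676 to 0.155 CPM, a floor that covers counting error only. Values are listed by mouse number: 1127, 1246 and 1349 in control, 1358, 1367 and 1378 in FLExD, 1236, 1308 and 1331 in moderate, and 1047, 1066 and 1079 in severe mice. The TMM factors differed between groups, from 0.706 in a control to 1.87 in a severe mouse. All changes are therefore relative to a scaling: over all tested genes the median change was 0.04 in moderate and 0.08 in severe mice with TMM (log2 scale), 0.65 and 1.39 with library size alone, and 0.29 and 0.79 with limma on TPM. The label of skeletal muscle held: Myh4, the myosin of the fastest fibers and the most abundant of 7 myofiber markers, stood at a mean of 79313 CPM in controls. Which skeletal muscle was sampled was not tested.

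Moderate mice had more RNA of S100a1, S100a4, S100a6, S100a10, S100a11 and S100a13 than controls, severe mice had still more of S100a4, S100a6, S100a10 and S100a11 and less S100a1 than moderate mice, and FLExD mice had no called change. A member counts as called where edgeR's quasi-likelihood test gave a Benjamini-Hochberg adjusted p below 0.05 over all tested genes and the change was 0.5 or more on the log2 scale, up or down. In moderate against control mice 6 of 10 members were called higher, where 24.4% of all tested genes were, and 1 was called lower, where 17.0% were. In severe against control mice 7 were called higher (32.9% of all tested genes) and 0 lower (27.9%), also 0 with DESeq2 and with limma on TPM; no member below control there had an unadjusted p under 0.05. Between severe and moderate mice 5 were called higher (17.6%) and 1 lower (18.8%). Mice of the groups did not overlap, on the CPM scale, for 6 members above and 1 below control in moderate mice (32.6% and 28.4% of all tested genes), 7 above and 0 below control in severe mice (40.0% and 34.9%), and 5 above and 1 below moderate in severe mice (30.5% and 30.8%). The median log2 fold change of the members was 1.06 in moderate and 1.23 in severe mice, and both comparisons use the same 3 controls.

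In FLExD against control mice edgeR called 0 members higher (0.0% of all tested genes) and 0 lower (0.006%). No member had an unadjusted p under 0.05; S100a4 had the smallest, 0.0591. DESeq2 and limma on log2(TPM + 1) also called 0 members in either direction. The groups did not overlap for 1 member above control, S100a16 (3.92% of all tested genes), and 0 below (4.62%).

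**Figure D1:**
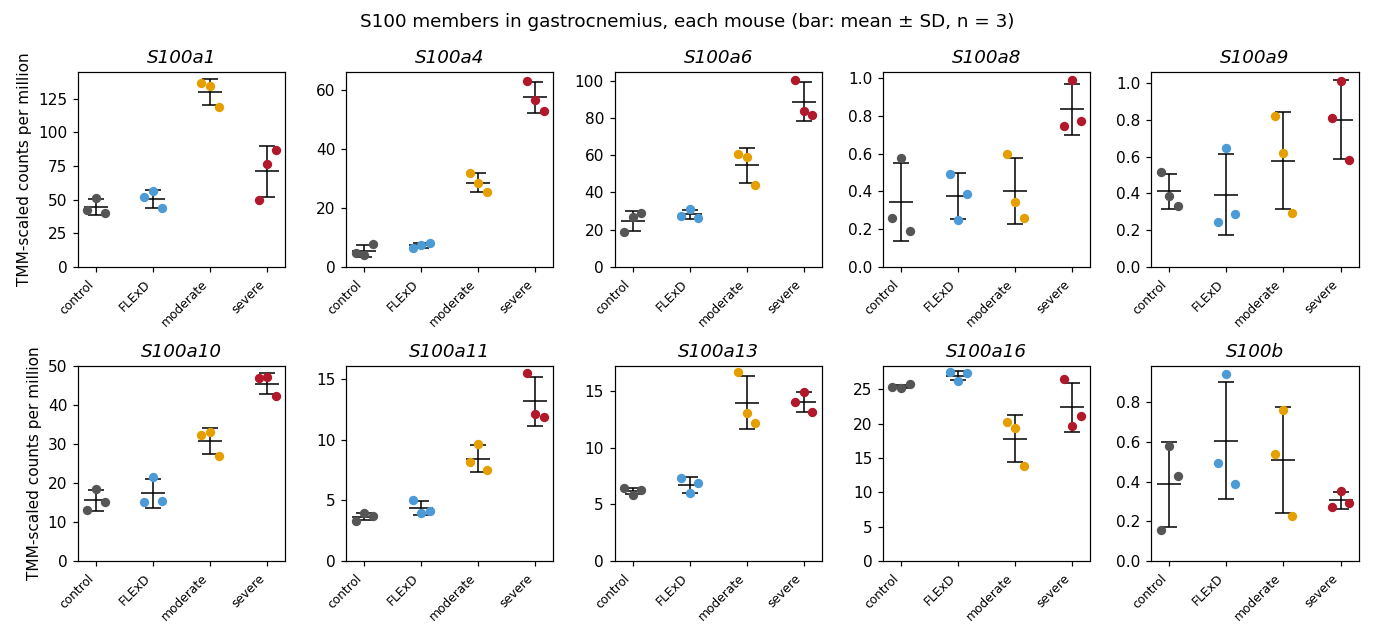
TMM-scaled CPM of each member in each of 12 mice by group, with a bar for the mean and SD of 3 mice and a linear axis from 0 in each panel. S100a1 peaks in moderate mice, with a mean of 130.2 CPM, while S100a4 is highest in severe mice, with a mean of 57.4 CPM.

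S100a1 (ENSMUSG00000044080), the fiber member, lies on the reverse strand at chr3:90511034-90514392 of GRCm38. It measured 42.0, 51.0 and 39.7 CPM in control mice, 51.7, 56.8 and 43.4 in FLExD, 137, 135 and 119 in moderate, and 49.6, 76.6 and 86.8 in severe mice. All moderate mice were above all controls and all severe mice, and severe mouse 1047 lay within the control range. The log2 fold change against control was 1.56 (SE 0.18, adjusted p = 9.05e-06) in moderate and 0.68 (SE 0.18, adjusted p = 0.00353) in severe mice by edgeR. Severe mice were lower than moderate mice, with a log2 fold change of -0.88 (SE 0.17, adjusted p = 0.00109). With FLExD in place of control mice the severe value was 0.49, under the fold threshold; the adjusted p for severe against moderate was 0.268 with library size alone and 0.376 with limma on TPM, at log2 fold changes of -0.19 and -0.16. These scalings raised the median of all genes; relative to the median of all genes S100a1 was at -0.89 with TMM, -0.91 with library size alone and -0.65 with limma on TPM.

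Myofiber markers moved against S100a1 relative to control mice, and fell with it between moderate and severe mice. Of 7 myofiber markers, 0 were called higher and 6 lower (17.0% of all tested genes) in moderate mice. All 7 were lower in severe mice, against control (27.9%) and against moderate mice (18.8%) alike. Their summed level was 169658, 131626 and 179147 CPM in control, 59577, 63568 and 71386 in moderate, and 9267, 16390 and 16008 in severe mice. Fewer cells of a type and less RNA per cell cannot be told apart in bulk muscle, and the part of fiber content in the S100a1 values was not tested.

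S100a13 (ENSMUSG00000042312), which takes part in the release of signal proteins that lack a secretion signal, starts head to head with S100a1 at chr3:90514435-90524581 on the forward strand. In the GENCODE annotation 42 bases separate their starts and no exon of either overlaps another gene. S100a13 measured 6.42, 5.88 and 6.26 CPM in control, 7.38, 5.998 and 6.90 in FLExD, 16.7, 13.1 and 12.2 in moderate, and 14.1, 14.9 and 13.2 in severe mice. Moderate and severe mice overlapped and all lay above the controls. The log2 fold change was 1.18 in both models (SE 0.13 in each; edgeR adjusted p = 3.37e-06 and 1.14e-06), and between the models 0.00 (SE 0.12, adjusted p = 0.985). Between the models the value was 0.70 with library size alone and 0.71 with limma on TPM, both called, but relative to the median of all genes it was -0.02 with TMM and with library size alone and 0.23 with limma on TPM.

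The ratio of S100a1 to S100a13 in TPM, a unit per transcript length, does not depend on scaling between libraries. It was 8.52, 11.2 and 8.05 in control, 11.1, 13.6 and 13.02 in moderate and 4.84, 7.02 and 8.96 in severe mice. Severe values were below all moderate values, and control values overlapped both groups.

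S100a4 (ENSMUSG00000001020), known from fibroblasts and macrophages and a partner of non-muscle myosin, had the largest change of the 10 members against control in both models. It measured 4.80, 3.84 and 7.66 CPM in control, 6.43, 7.33 and 8.13 in FLExD, 31.8, 28.4 and 25.4 in moderate, and 63.0, 56.4 and 52.6 in severe mice. The control, moderate and severe ranges were separate, in that order. The log2 fold change was 2.38 (SE 0.19, adjusted p = 3.63e-07) in moderate and 3.39 (SE 0.19, adjusted p = 4.29e-09) in severe mice by edgeR, and 1.01 (SE 0.17, adjusted p = 2.74e-04) between them. Its exons overlap those of Gm42674 on the same strand, and its counts were fractional in all 12 libraries, so reads were divided between genes and its level is uncertain to that extent.

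S100a6, S100a10 and S100a11 followed the same order with smaller changes. S100a6, a partner of annexins in proliferating cells, measured 18.6, 27.0 and 28.8 CPM in control, 60.6, 59.1 and 43.8 in moderate, and 101, 84.0 and 81.7 in severe mice. S100a10, which joins with annexin A2 at the cell membrane, measured 13.1, 18.4 and 15.2 CPM in control, 32.4, 33.1 and 26.9 in moderate, and 47.0, 47.2 and 42.4 in severe mice. S100a11, a partner of annexin A1, measured 3.33, 3.97 and 3.71 CPM in control, 8.16, 9.68 and 7.48 in moderate, and 15.5, 12.1 and 11.9 in severe mice. For each of the 3 genes, every moderate mouse was above every control and every severe mouse above every moderate one.

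By edgeR the log2 fold changes of S100a6 were 1.13 (SE 0.16, adjusted p = 5.70e-05) in moderate and 1.84 (SE 0.16, adjusted p = 2.74e-07) in severe mice. Those of S100a10 were 0.99 (SE 0.15, adjusted p = 7.12e-05) and 1.55 (SE 0.15, adjusted p = 3.98e-07). Those of S100a11 were 1.21 (SE 0.15, adjusted p = 1.47e-05) and 1.85 (SE 0.15, adjusted p = 6.33e-08). Severe exceeded moderate mice by 0.70, 0.56 and 0.64; without moderate mouse 1331 the S100a10 value was 0.49 and no longer called. S100a6 and S100a11 also had fractional counts, in 12 and 11 libraries.

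Macrophage markers rose in the same order as S100a4, S100a6, S100a10 and S100a11, and fibroblast markers moved in both directions. All 8 macrophage markers were called higher in both models, with a summed level of 114 CPM in control, 505 in moderate and 1039.9 in severe mice (means of 3); Lyz2, a lysozyme and the most abundant in moderate and severe mice, rose by a log2 fold change of 2.80 and 3.81. Of 8 fibroblast and fibro-adipogenic progenitor markers, 4 were called higher (24.4% of all tested genes) and 0 lower (17.0%) in moderate mice. In severe mice 4 were higher (32.9%) and 3 lower (27.9%). Between severe and moderate mice 1 of these markers was higher (17.6%) and 3 were lower (18.8%). Their mean sum was 1015 CPM in control, 2428 in moderate and 4290 in severe mice, of which Col3a1, a fibrillar collagen and the most abundant in moderate and severe mice, made up 328, 1594 and 3128 CPM. Control mouse 1349 stood apart, with a sum of 1588 CPM against 652 and 805 and Col3a1 at 554 against 185 and 245. No marker of either list was at 0 counts in all mice. The part of these cells in the S100 values was not tested.

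Of S100a4, S100a6, S100a10 and S100a11, all but S100a10 have an entry in the RefSeq promoter table (GRCm38). These 3 also had the largest changes against control. The upstream stretches of S100a4, S100a6 and S100a11 are shown because all 3 rose from control to moderate to severe mice. Each is the 250 bases before the RefSeq start on the forward strand, at chr3:90603520-90603769, chr3:90612644-90612893 and chr3:93520246-93520495, 5′ to 3′; capitals mark TATAAA and TGANTCA, the AP-1 motif, searched on both strands.
S100a4: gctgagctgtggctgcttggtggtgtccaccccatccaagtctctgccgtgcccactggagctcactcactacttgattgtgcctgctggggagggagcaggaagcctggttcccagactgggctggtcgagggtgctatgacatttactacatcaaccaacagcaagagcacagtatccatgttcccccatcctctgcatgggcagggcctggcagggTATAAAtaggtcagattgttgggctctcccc
S100a6: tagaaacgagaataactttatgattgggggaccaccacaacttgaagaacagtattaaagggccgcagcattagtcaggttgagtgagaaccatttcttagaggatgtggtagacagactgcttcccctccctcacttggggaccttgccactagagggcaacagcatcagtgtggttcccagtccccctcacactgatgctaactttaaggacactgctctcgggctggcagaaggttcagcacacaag
S100a11: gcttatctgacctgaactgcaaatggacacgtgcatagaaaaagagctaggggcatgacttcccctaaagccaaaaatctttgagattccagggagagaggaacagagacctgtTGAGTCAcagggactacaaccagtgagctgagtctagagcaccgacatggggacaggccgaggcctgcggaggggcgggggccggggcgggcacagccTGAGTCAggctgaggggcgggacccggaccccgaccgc
S100a4 held TATAAA, which 12.4% of 32851 such promoters held, and S100a11 held TGANTCA, which 6.75% held. S100a6 held neither. Of the 9 members with an entry, 2 held TATAAA (S100a4 and S100a8), 2 held TGANTCA (S100a11 and S100a16), 7 held the E-box CANNTG (66.2% of all promoters) and 0 held the DUX4 motif (0.155%).

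**Figure D2:**
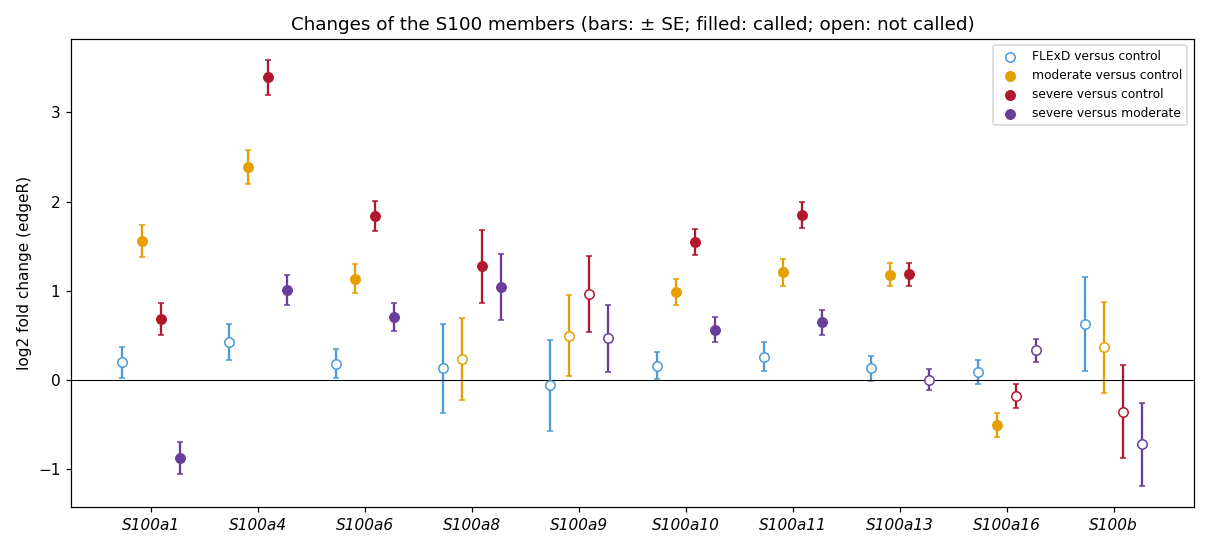
edgeR log2 fold change of each member in 4 comparisons, with bars of 1 SE, filled points for called and open points for uncalled values. S100a1 is the called member that lies below 0 between severe and moderate mice, at -0.88; with library size alone or limma on TPM, which raised the median of all genes, it was not called, at -0.91 and -0.65 relative to that median.

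S100a16 (ENSMUSG00000074457), a widely made member, was the member called lower in moderate mice. It measured 25.3, 25.2 and 25.7 CPM in control, 27.5, 26.2 and 27.3 in FLExD, 20.3, 19.4 and 13.8 in moderate, and 26.4, 19.7 and 21.1 in severe mice. All moderate mice were below all controls, with mouse 1331 lowest, and the severe range included the control range. The log2 fold change was -0.51 (SE 0.13, adjusted p = 0.00522) in moderate and -0.18 (SE 0.13, adjusted p = 0.233) in severe mice by edgeR. The call in moderate mice was lost without mouse 1331 (-0.39, adjusted p = 0.0137), with no filter on low counts (-0.45) and with a filter of at least 10 counts in every sample (-0.46). The direction depended on scaling: with library size alone the values were 0.10 in moderate and 1.13 in severe mice, and with limma on TPM -0.04 and 0.97, the severe values both called. Relative to the median of all genes, moderate mice were at -0.55 with TMM and with library size alone and at -0.32 with limma on TPM, and severe mice at -0.26, -0.26 and 0.18, so the sign in severe mice still depended on the scaling.

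**Figure D3:**
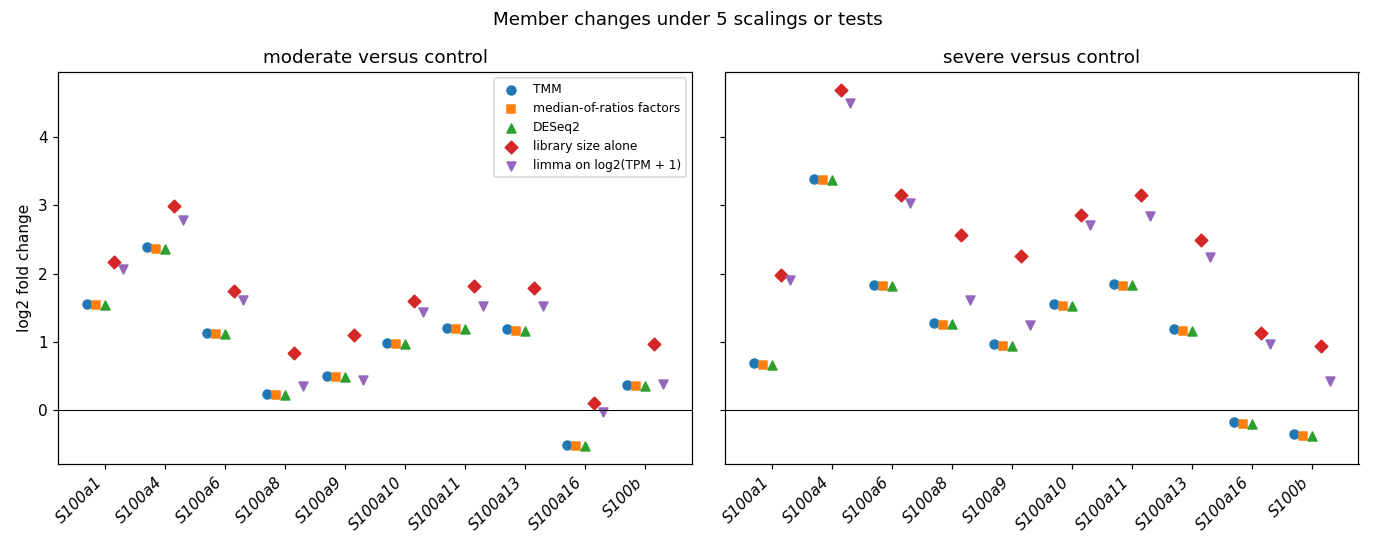
log2 fold change of each member against control in moderate (left) and severe (right) mice under 5 scalings or tests, 1 marker shape each. Library size alone and limma on TPM lie above the other 3 in severe mice, and S100a16 changes sign there, from -0.18 with TMM to 1.13 and 0.97; S100b also changes sign, without a call.

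The myeloid members S100a8 and S100a9 were rare. S100a8 had 5, 12 and 4 counts in control, 10, 5 and 8 in FLExD, 19, 10 and 8 in moderate, and 33, 42 and 32 in severe mice. S100a9 had 10, 8 and 7 counts in control, 5, 13 and 6 in FLExD, 26, 18 and 9 in moderate, and 36, 43 and 24 in severe mice. On the CPM scale every severe mouse was above every control for both genes, and moderate and control mice overlapped. S100a8 was called higher in severe mice against control (log2 fold change 1.27, SE 0.41, adjusted p = 0.0127) and against moderate mice (1.04, SE 0.37, adjusted p = 0.0305) by edgeR. S100a9 missed the threshold in severe mice (0.96, SE 0.43, adjusted p = 0.0567).

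Single mice and the settings of the analysis decided these calls. S100a8 in severe against control mice had an adjusted p of 0.0546 without control mouse 1127 and 0.0693 without control mouse 1349. Against moderate mice it was 0.0922 without moderate mouse 1308, 0.118 without moderate mouse 1331 and 0.0980 without severe mouse 1066. S100a9 in severe mice was called with library size alone, limma on TPM, no filter, a model of those 2 groups alone or FLExD as the comparison group, and also without severe mouse 1079 (adjusted p = 0.0372), without moderate mouse 1331 (0.0391) and without FLExD mouse 1367 (0.0467).

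Of 11 neutrophil markers 5 were tested. Of these, 3 were called higher in moderate (24.4% of all tested genes) and 5 in severe mice (32.9%). Summed counts of the list were 47.3 to 59.0 in control and 477 to 582 in severe mice. A rare marker can pass the filter on low counts through the severe mice alone, so these calls are not independent of the filter. Ly6g was at 0 counts in all 12 mice, and Camp, Ngp, Mpo and Elane had at most 3 counts in any mouse. The summed level was 2.45, 2.72 and 2.80 CPM in control, 7.83, 5.42 and 4.82 in moderate, and 13.1, 12.1 and 11.5 in severe mice, with Csf3r, the receptor of granulocyte colony-stimulating factor, the most abundant in moderate and severe mice. The part of neutrophils in the S100a8 and S100a9 values was not tested.

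**Figure D4:**
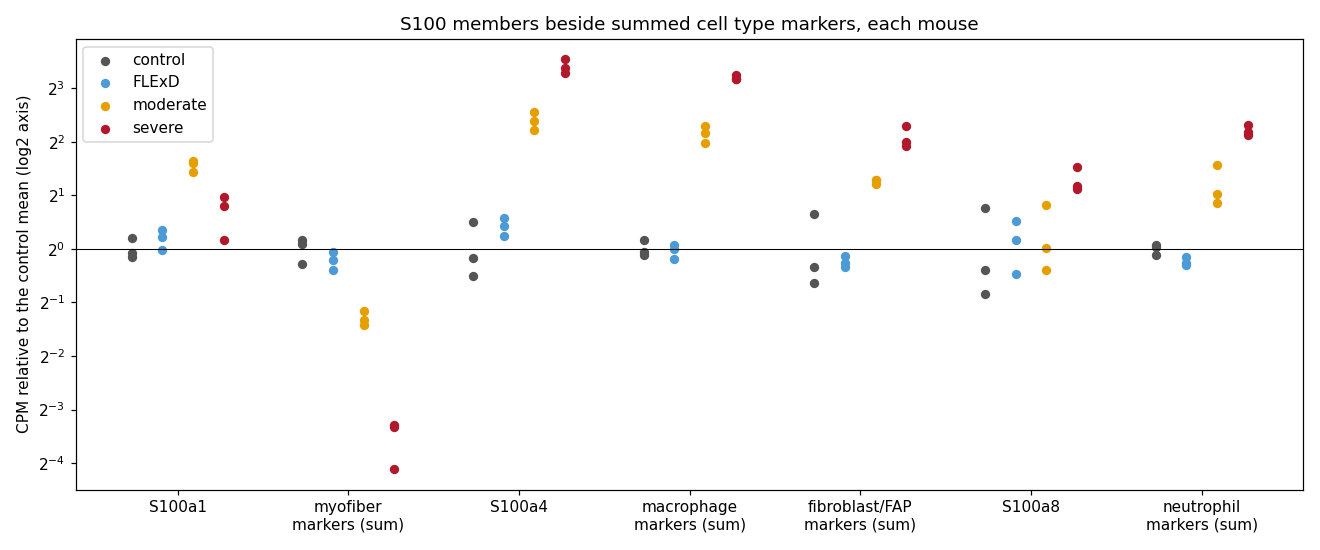
CPM of S100a1, S100a4 and S100a8 and summed CPM of 4 marker lists in each mouse, divided by the control mean, on a log2 axis. The myofiber sum falls to 0.0867 of control in severe mice while the macrophage sum reaches 9.15 times control.

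S100b (ENSMUSG00000033208) lies on chr10:76253853-76261159, away from the 9 members on chromosome 3. It had 3, 12 and 9 counts in control, 10, 19 and 8 in FLExD, 17, 22 and 7 in moderate, and 12, 15 and 12 in severe mice. The groups overlapped. The log2 fold change was 0.37 (SE 0.51, adjusted p = 0.575) in moderate and -0.36 (SE 0.52, adjusted p = 0.557) in severe mice by edgeR, neither called.

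The make-up of the family differed between groups on the TPM scale. S100a1 made up 37.2% ± 4.13 (SD, n = 3) of the summed TPM of the 10 members in control, 37.5% ± 2.02 in FLExD, 47.0% ± 1.69 in moderate and 23.5% ± 6.47 in severe mice. The moderate and severe ranges were each separate from the control range (exact two-sided permutation p = 0.1 for each, the smallest that 3 against 3 mice allow), and FLExD mice overlapped controls (exact permutation p = 1.0). S100a4 made up 5.25% ± 1.92, 6.15% ± 1.03, 11.2% ± 0.435 and 20.4% ± 1.67, and S100a16 15.1% ± 1.23, 14.02% ± 1.46, 4.39% ± 0.376 and 4.91% ± 0.816, in the same order of groups. The mean TPM itself was 75.6, 85.5, 320.1 and 291 for S100a1 and 30.6, 31.9, 30.2 and 61.5 for S100a16, so the shares below control came without a like fall in TPM.

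In order of mean TPM, S100a1 led in control, FLExD and moderate mice, with ranges separate from S100a6 in each. In severe mice S100a6 led, and its range overlapped that of S100a1, which overlapped that of S100a4. S100a8, S100a9 and S100b were the lowest members in all groups, and entries with 0 counts often carry a TPM above 0, so their TPM is less certain. The family's summed TPM was 204 ± 21.9 in control, 228 ± 17.5 in FLExD, 683 ± 89.1 in moderate and 1250.4 ± 113 in severe mice (SD, n = 3); TPM is relative to all other transcripts of a library, and on the TMM scale the summed CPM was 126, 143, 286 and 314.

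**Figure D5:**
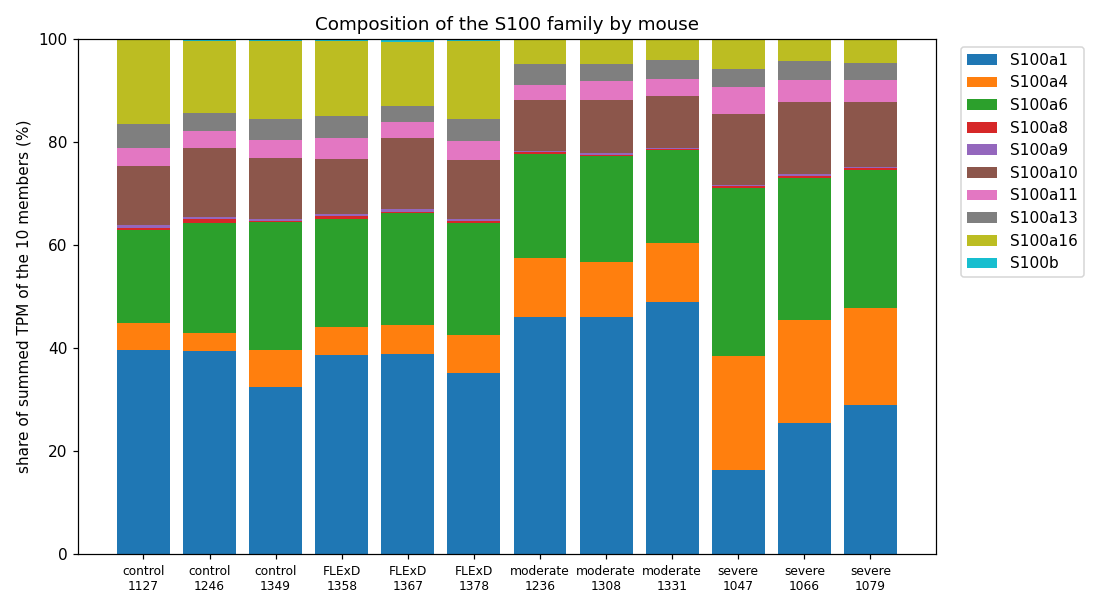
Share of each member in the summed TPM of the 10 members, 1 stacked bar per mouse. S100a1 holds 46.0% to 48.9% in moderate and 16.3% to 28.9% in severe mice, against 32.4% to 39.7% in controls.

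Of the other S100 genes, 8 had an entry and 2 were tested. S100a3 was called higher in moderate (log2 fold change 1.43, adjusted p = 0.0343) and severe mice (2.61, adjusted p = 1.63e-04) by edgeR, at no more than 3.36 counts in a control and 28.7 to 45.1 in severe mice. FLExD mice had at most 3.42 counts of it, so it passed the filter on low counts through the model mice, where it is high. Its calls are therefore not independent of the filter, and the genes not tested could not be called. S100a5 was at 0.67 in severe mice and not called. Both had fractional counts and lie in the same cluster as S100a4, so their levels are uncertain. S100a2, S100a14 and S100g had at most 3 counts in any mouse, S100a7a at most 7.68, and S100a7l2 and S100z 0 in all.

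Among 7 S100 receptors and their partners, 4 were called higher and 1 lower in moderate mice, and 5 higher and 1 lower in severe mice. Over all tested genes 24.4% were higher and 17.0% lower in moderate mice, and 32.9% and 27.9% in severe mice. Cd14 and Tlr2, which serve innate sensing on myeloid cells, had log2 fold changes of 2.93 and 2.87 in severe mice. Ager, the receptor RAGE, was at 0.71 in moderate mice, not called, and 1.33 in severe mice (edgeR adjusted p = 0.0194). Bsg, a receptor of S100a9 and the most abundant in control mice, fell by 2.39 on the log2 scale in severe mice.

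Of 10 annexins and other S100-binding proteins, 5 were called higher and 0 lower in each model: Anxa1, Anxa2, Anxa5, Anxa7 and Myh9. The shares of all tested genes were 24.4% higher and 17.0% lower in moderate, and 32.9% and 27.9% in severe mice. Anxa2, the partner of S100a10, had log2 fold changes of 1.55 (SE 0.12) in moderate and 2.41 (SE 0.12) in severe mice, and Anxa1, the partner of S100a11, had 2.28 (SE 0.10) in severe mice. Ahnak, the most abundant, was at 0.20 and 0.18 and was not called.

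Most of the fiber's calcium proteins were lower than in control mice, unlike S100a1. Of 11 genes of calcium release, uptake and binding, 10 were called lower and 1 higher in each model against control, and 9 lower and 0 higher in severe against moderate mice. Of all tested genes, 17.0% were called lower in moderate and 27.9% in severe mice against control, and 18.8% in severe against moderate mice. The shares called higher were 24.4%, 32.9% and 17.6%, in the same order. Pvalb, a calcium buffer of fast fibers, had log2 fold changes of -1.46 in moderate and -4.91 in severe mice, and Ttn, the most abundant, -1.06 and -2.43. The gene called higher was Sln, sarcolipin, an inhibitor of the calcium pump, at 6.21 (SE 0.44) and 5.90 (SE 0.43).

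The genes outside the family with the pattern nearest to a member were ranked by the root mean square difference in log2 CPM, centred on each gene's mean, over 12 mice. Nearest to S100a1 were Clasp2 (0.122) and Plin3 (0.129), to S100a4 Clec4a2 (0.222) and Arhgap30 (0.226), and to S100a6 Efemp2 (0.118) and Abhd2 (0.119). Clasp2 had log2 fold changes of 1.42 in moderate and 0.62 in severe mice, as against 1.56 and 0.68 for S100a1. For S100a10 they were Ahi1 (0.115) and Nt5c2 (0.123), for S100a11 Fzd1 (0.124) and Slc39a11 (0.126), and for S100a13 Cntn1 (0.0990) and Akr1a1 (0.104). For S100a16 they were Ube2e3 (0.137) and Foxn2 (0.138). The rare members had no gene as near: S100a8 had Emp2 (0.345) and Chek2 (0.361), S100a9 AC113287.1 (0.279) and AC087541.3 (0.310), and S100b Gm11226 (0.364) and Rspo3 (0.394). At 3 to 43 counts per mouse, counting error adds to the distances of these rare members. Among the members themselves S100a6 and S100a11 were closest, at 0.167.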

How the data were processed

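Gastrocnemius RNA-seq libraries of 12 mice were grouped by the genotype and treatment labels. Per the submitters' notes, reads were mapped with RSEM 1.2.4, Bowtie and TopHat2 2.0.8b on mm10. The authors deposited expected counts per gene, not normalized, and TPM values; many entries with 0 counts carry a TPM above 0. Strand use in counting is not given in the sources used here.

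Expected counts were rounded and tested with edgeR 4.0.16 under R 4.3.3, with filterByExpr, TMM factors and robust quasi-likelihood F-tests from 1 model of the 4 groups; the study's own rule gives no standard error. Standard errors were derived from the F statistic. Shares and ratios used TPM. Tests were tried on simulated data first. Positions came from GENCODE M21 on GRCm38 and promoters from RefSeq.

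Members and lists were chosen with earlier results of these data known. Genes named from a list were taken from the most abundant by mean CPM over all 12 mice and the 2 with the largest called change in severe mice, of which some are not printed, and others where a count of 5 or fewer is spelled out; Ager was named after its values were seen. For each member the 2 tested genes of nearest pattern are named, among 16023 genes above 0 CPM in every mouse. Lists were described without a list test. No replicate numbers are shared, so nothing was paired.

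Alternatives were DESeq2 1.42.0, limma 3.58.1 on log2(TPM + 1), library size alone, median-of-ratios factors, a minimum of 10 counts in every sample, no filter, a model of the 2 groups compared alone, a log2 fold threshold of 1 or none, FLExD as the comparison group, and each mouse left out; for shares, counts, and S100a8 and S100a9 left out. Figures were drawn with matplotlib in Python.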

Additional observations from a re-analysis of the deposited data

How the results depend on the processing

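The 6 members called higher in moderate mice were 6 with any single mouse left out, 7 with library size alone and 5 with a log2 fold change of at least 1. Of all 16679 tested genes, 4072 were called higher in moderate than in control mice in the main fit. That count was 8764 with library size alone and 2648 with a log2 fold change of at least 1. The 7 members called higher in severe mice were 6 to 8 with single mice left out. The number was 9 with library size alone, 9 with limma on log2(TPM + 1), and 8 with no filter on low counts or only the 2 groups compared. It was 6 with a log2 fold change of at least 1 or at least 10 counts in every sample, which tests 7 members. Over all 16679 tested genes, 5480 were called higher in severe than in control mice in the main fit. That count was 12580 with library size alone, 10687 with limma on TPM and 3955 with a log2 fold change of at least 1. The 1 member called lower in moderate mice, S100a16, was 0 members with library size alone, limma on log2(TPM + 1), a log2 fold change of at least 1, no filter on low counts, or at least 10 counts in every sample, and 0 to 1 with single mice left out (0 without moderate mouse 1331). Its log2 fold change with library size alone turned to 0.10 in moderate and 1.13 in severe mice, and to 0.97 in severe mice with limma on TPM. Between severe and moderate mice, the 5 members called higher became 8 with library size alone, 8 with limma on TPM, 2 with a log2 fold change of at least 1, and 3 to 5 with single mice left out (3 without moderate mouse 1331). Calls over all genes rose as well with both scalings: of 16679 tested, 2943 were called higher there in the main fit, 9648 with library size alone and 8034 with limma on TPM. The 1 called lower there, S100a1, became 0 with library size alone, limma on TPM or a log2 fold change of at least 1. The stricter fold threshold calls fewer by construction, and both scalings raised the median of all genes; for the other settings the cause was not tested. The S100a1 share in FLExD mice was 35.3% with counts in place of TPM, against 37.5%. Of 845 values of single members under the alternatives, 807 kept their side of the call, 20 lost a call and 15 gained one in the same direction, and 3 changed sign, all of S100a16, of which 1 lost a call and 2 gained one; 21 of the 807 changed sign between values of which neither was called. With at least 10 counts in every sample, S100a8, S100a9 and S100b were not tested. The 3 to 43 counts per mouse of these genes limit what can be detected for them, and 3 mice per group limit every comparison.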

Other observations

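Further cell type markers were measured in the same mice. For comparison with the counts below, 24.4% of all tested genes were called higher and 17.0% lower in moderate mice. In severe mice the shares were 32.9% and 27.9%. All 5 endothelial markers were called lower in severe mice and 3 in moderate mice, with Kdr, a receptor of vascular growth factor, at a log2 fold change of -2.38 and Emcn at -1.30 in severe mice; Pecam1, the most abundant, was at -0.60. All 5 red blood cell markers were lower in severe mice and 1 in moderate mice, led by the globin genes Hbb-bt (-3.51) and Hbb-bs (-3.08). Of 6 adipocyte markers, 4 were lower in severe and 1 in moderate mice, with Plin1 at -2.32, Retn at -2.30 and Cfd, the most abundant, at -1.20 in severe mice.

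Of 7 slow fiber markers, 3 were called lower in severe and 2 in moderate mice, and 0 were higher; Myl2 was at -8.86 (SE 1.201), Myl3 at -8.12 (SE 1.17) and Myh7, the most abundant in control mice, at -6.86 (SE 1.07) in severe mice. The summed slow fiber level differed widely within groups, at 1281, 2691 and 495 CPM in control and 2999, 2725 and 686 in FLExD mice. Of 5 smooth muscle markers, 1 was higher and 3 lower in severe mice, and 2 were higher in moderate mice; Acta2, which activated fibroblasts also make, was at 2.42 and Cnn1 at -1.78 in severe mice. Of 5 tendon markers, 2 were higher and 3 lower in severe mice, and 1 was higher and 1 lower in moderate mice; Thbs4 was at 2.04 and Fmod at -1.72 in severe mice. Of 6 skin keratinocyte markers 1 was tested, Krt10, which was lower in both models (-1.15 and -1.03); Krt5 and Krt1 were at 0 counts in all mice. All values are edgeR log2 fold changes against control mice with TMM scaling.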
